A study of Mus musculus with 7 samples.

Results

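Endothelial identity genes are a set of 39 genes that mark the cells lining a blood vessel, and they were read here in the carotid artery of mice born from reciprocal crosses. The members were listed by name, and each was represented by 1 probe set, the one with the highest mean signal over the 7 arrays among those annotated to exactly 1 symbol. All 39 had such a probe set, out of 18193 genes, and 38 of them exceeded the minimum mean signal of 23.6 that 12713 genes passed. All offspring were ApoE-/+, carrying 1 null allele of Apoe, whose product carries lipoproteins to their receptors. For 3 samples a wild-type female, labelled normocholesterolemic, had been crossed with an ApoE-/- male. For the other 4 the female was ApoE-/- and labelled hypercholesterolemic, and the male wild type. The series asked whether such parents alter the susceptibility of the offspring to atherosclerosis. Since both parents switched between the crosses, mother and father cannot be told apart as the source of a difference. Nothing read here states age, sex, litter or diet of the offspring, or whether each array came from a separate animal, so p-values measure only the spread between these samples.

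Endothelial cells keep their identity through a network of transcription factors. ETS proteins such as ERG, FLI1 and ETS1 act with SOX proteins of the F group and with TAL1 and LMO2 on the genes for junctions, receptors and secreted proteins. The Krüppel-like factors KLF2 and KLF4 are induced by steady blood flow and favour a state in which the lining of an artery is quiet and resists clotting. Atherosclerotic lesions form mainly where flow is disturbed.

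The arrays were scaled by the submitters to one mean, and their medians were 36 to 42.1. The highest of 27 probe sets for bacterial transcripts served as each array's background and was at most 22. Apoe, of which all offspring carried 1 intact allele, had signals of 2554 to 3897. A score below is the mean log2 deviation of the measured genes of a list from the mean of the 7 arrays. The array of wild-type mother 2 stood apart from the others. Its Xist signal was 41.2 against 5174 to 5931 on the other 6 arrays. Signals of the Y chromosome genes Eif2s3y, Kdm5d and Uty on that array were 7.2, 13.5 and 11.9, under its background of 22. The sex of the samples was not tested. The score of that array for skeletal muscle markers was 3.38 against -0.15 or less, and its 3 prime to 5 prime Gapdh ratio was the highest, at 7.8. Of the 39 members, 37 exceeded the background on every array, while 61.8% to 74.7% of all probe sets did so on single arrays. Each member stood by its strongest probe set, and signal above background does not show which cells it came from. Rasip1 was at background on 2 arrays. Gja5, the connexin of arterial endothelium, was not above background on any of the 7 arrays, with signals of 1.7 to 8, and has no fold change.

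The summed signal of the members was 45312 to 45932 in the wild-type and 45805 to 48971 in the ApoE-null mother group. That sum gives most weight to members of high signal, such as Cav1 (mean 7969), which smooth muscle and fat cells also express. Of single genes, 0 of 38 measured members passed the test (limma, p-values adjusted by Benjamini-Hochberg across the 27027 probe sets kept, smallest adjusted p = 0.508), where 0.00787% of all genes tested did. Fold changes are on the log2(signal + 2) scale, ApoE-null minus wild-type mother, and intervals are at the 95% level for each gene alone. Of the members, 24 had positive and 14 negative values, or 63.2% positive against 48.8% of all genes. The median was 0.079 on the log2 scale, and -0.0081 over all genes. Values of single members ran from -0.45 for Sox18 to 0.48 for Lmo2. For 35 of 38 members, or 92.1%, the interval lay within a 2-fold change in either direction, which held for 83.2% of all genes. It lay within a 1.5-fold change for 20 members. The intervals that reached past 2-fold belonged to Emcn, Mmrn1 and Rasip1. An unadjusted p under 0.05 was reached by 3 members, or 7.89%, against 8.65% of all genes. Of these, 1 was higher (Lmo2; 4.43% of all genes) and 2 were lower (Sox18 and Gja4; 4.22% of all genes). The arrays of the groups did not overlap for 3 members, against 8.58% of all genes, with 2 higher (4.34% of all genes) and 1 lower (4.24% of all genes). Both shares were near those of all genes. Since these are tissue samples, a difference in the number of endothelial cells and one in RNA per cell cannot be told apart.

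**Figure D1:**
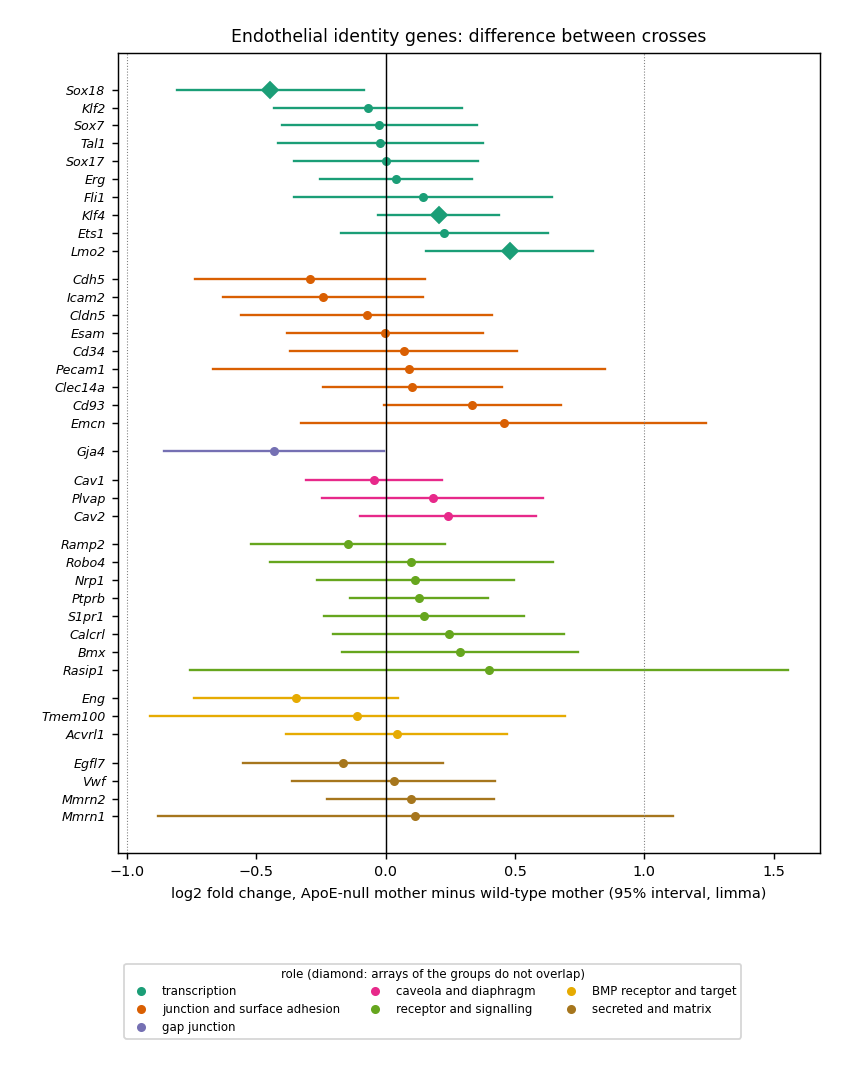
Log2 fold change of the 38 measured members between the crosses (x axis, ApoE-null mother minus wild-type mother, log2 scale) with the 95% interval from limma, by role; dotted lines mark a 2-fold change. Values run from -0.45 for Sox18 to 0.48 for Lmo2, and diamonds mark the 3 members whose groups did not overlap.

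The 3 members without overlap between the crosses were all transcription regulators. Lmo2 encodes an adaptor that links TAL1 to GATA factors in endothelial and blood progenitor cells. Its signal was 930.5, 710.2 and 908 on the 3 arrays with a wild-type mother and 1034, 1215, 1178 and 1296 on the 4 with an ApoE-null mother. Means were 849.6 ± 121 (SD, n = 3) and 1181 ± 109 (SD, n = 4). Every array of the second group lay above every array of the first, and the array of wild-type mother 2 was the lowest. The log2 fold change was 0.48 (standard error 0.15, interval 0.16 to 0.80, adjusted p = 0.508 in limma), a ratio of 1.39, and 0.36 to 0.55 when each array was left out in turn. The lowest of these was without wild-type mother 2, the array that stood apart. Its partner Tal1, a factor needed for blood and vessel formation, had signals of 218 to 299.5 and 202 to 293 and a log2 fold change of -0.022 with an interval of -0.42 to 0.37. Lmo2 is also known in erythroid and early T lineage cells. Of 12 T cell and thymocyte markers, 7 were measured and 6 of these were higher without overlap, against 4.34% of all genes, with none called. Their summed signal was 143 to 224 in the wild-type and 468 to 780.2 in the ApoE-null mother group. Cd3d and Cd3g were at background on the 3 arrays of the first group and Cd4 on all 7. The filter used the mean over all 7 arrays, so genes at background in the first group could pass it through the second. The summed signal of the 3 measured erythroid markers of 7 was 313 to 677 and 539 to 1258. All 3 had positive log2 fold changes, and 1 was higher without overlap, against 4.34% of all genes. The Hba-a1 probe set of 1 symbol was at background on every array. The part of these cells in the Lmo2 difference was not tested.

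Sox18, one of the 3 F-group SOX factors of endothelium, was the member with the most negative value. Its signal was 1101, 941 and 1272 with a wild-type mother and 883, 795, 647 and 919.6 with an ApoE-null mother, so that the lowest array of the first group lay just above the highest of the second. Means were 1105 ± 165 (SD, n = 3) and 811 ± 121 (SD, n = 4). The log2 fold change was -0.45 (standard error 0.16, interval -0.81 to -0.086, adjusted p = 0.55 in limma). Leaving out single arrays gave -0.56 to -0.34, with -0.56 without wild-type mother 2. Its relatives Sox7 and Sox17, which act partly in place of one another, had values near 0. Sox17, the arterial member of the group, had signals of 1236, 1167 and 1615 against 1473, 1513, 1126 and 1234, with overlapping groups. Its log2 fold change was 0.00080 (interval -0.35 to 0.36). Another kept probe set of Sox17, with a mean signal of only 58, gave -0.019. Sox7 had a log2 fold change of -0.025 (interval -0.40 to 0.35). Whether Sox18 differed from its relatives was not tested.

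Klf4 and Klf2, the flow-induced factors, had small differences. For Klf4 the signals were 4325, 3946 and 3896 with a wild-type mother and 4836, 4602, 4738 and 4515 with an ApoE-null mother. Means were 4056 ± 235 (SD, n = 3) and 4673 ± 142 (SD, n = 4). The groups did not overlap, but the gap was narrow against the size of the signal, and the log2 fold change was 0.21 (standard error 0.11, interval -0.029 to 0.44, adjusted p = 0.642 in limma), or a ratio of 1.15. Another kept probe set of Klf4, with a mean signal of 192, gave -0.016, with overlapping groups. For Klf2 the signals were 463, 332 and 425 against 441, 338, 375 and 389, wild-type mother 2 having the lowest. The groups overlapped, and its log2 fold change was -0.068 (standard error 0.17, interval -0.43 to 0.30, adjusted p = 0.933 in limma). Both factors also respond to tissue handling, and the 9 early response genes measured with them, such as Fos and Atf3, had a median log2 fold change of -0.33. The score of those genes was 0.050 to 0.31 in the wild-type and -0.38 to 0.26 in the ApoE-null mother group. Klf4 is expressed by smooth muscle too, whose 10 markers had a median of -0.11 and summed signals of 31936 to 42267 and 32181 to 40332. The part of either list in the values of Klf4 was not tested.

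The ETS factors, which bind at many endothelial genes, had no called change. Erg, the most restricted of them to endothelium, had signals of 422 to 465 and 433 to 483, a narrow range, and a log2 fold change of 0.039 with an interval of -0.25 to 0.33. Ets1 had 0.23 (interval -0.17 to 0.63), with the lowest signal, 516, on the array of wild-type mother 3, without which its value was 0.022. Fli1, which like Ets1 is shared with blood cells, had 0.14 (interval -0.35 to 0.64). Its other kept probe set gave -0.37, the widest gap between probe sets of a member. The part of blood cells in the values of Ets1 and Fli1 was not tested.

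**Figure D2:**
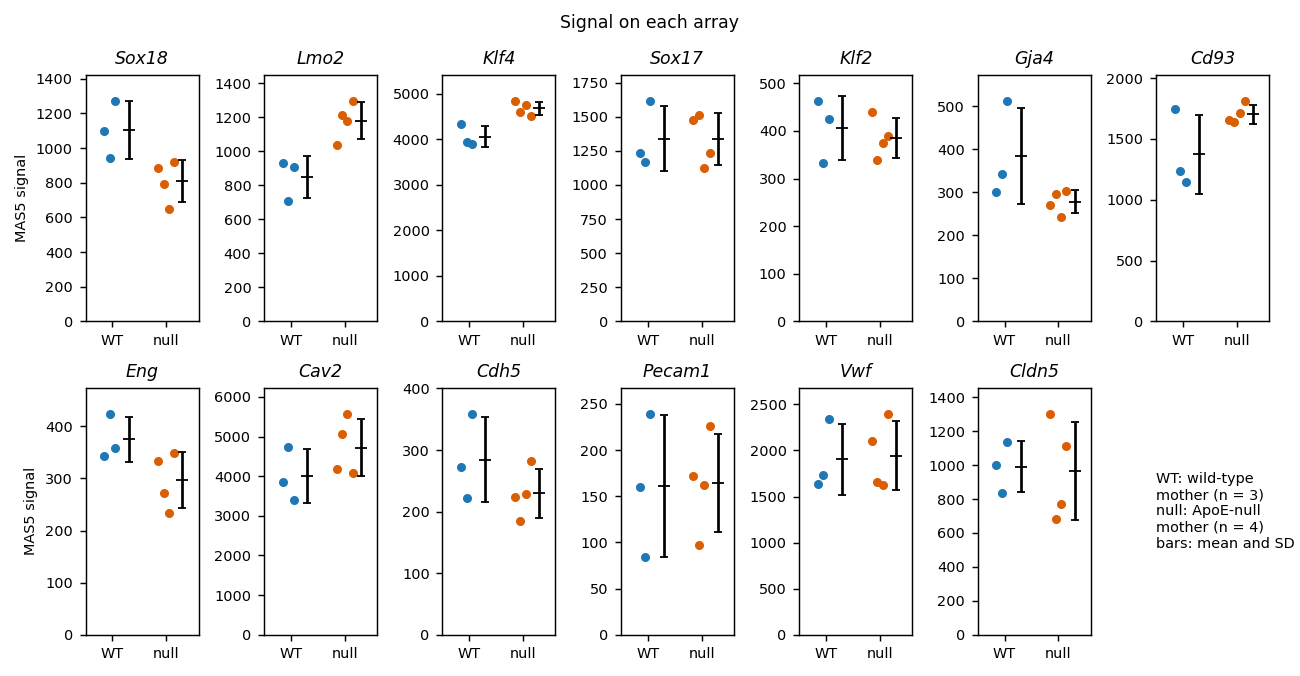
Signal (y axis, MAS5 units, linear from 0) on each of the 3 arrays with a wild-type mother (blue) and the 4 with an ApoE-null mother (orange) for 13 members, with the mean and SD of each group beside the points. Groups are separate for Sox18, Lmo2 and Klf4 and overlap for the other 10 genes.

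Promoters of the members were read for letters that ETS and Krüppel-like factors are known to bind, since those factors are themselves members. RefSeq windows of build GRCm38.p6, from 250 bases before a start to 50 after it, were given for 20 of the 39 members, in 26 windows. The letters AGGAAG, on either strand, stood in 12 of 26 member windows (46.2%) and in 35.4% of all 32851 windows. The other ETS form, CCGGAA on either strand, which shares its core with the first, stood in 0 of 26 and in 14.9% of all windows. At least 1 of these forms stood in 12 of 26 member windows (46.2%) and in 45.2% of all windows, which is near the same share. The letters CACCC, on either strand, stood in 15 of 26 (57.7%) and in 57.5% of all. A match is a description of the letters and not a binding site. The 250 bases before the start are shown for Klf4, the member without overlap that had a window, and for Eng, whose 2 matches to the first form, 1 on each strand, are in capitals. The Klf4 stretch, at chr4:55532476-55532725 on the minus strand, held neither ETS form.
Klf4: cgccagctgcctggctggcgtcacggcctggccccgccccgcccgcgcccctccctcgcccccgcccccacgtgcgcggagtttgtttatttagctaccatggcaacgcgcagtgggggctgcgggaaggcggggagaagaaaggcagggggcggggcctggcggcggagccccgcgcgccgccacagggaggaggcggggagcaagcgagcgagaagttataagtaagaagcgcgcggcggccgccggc
Eng: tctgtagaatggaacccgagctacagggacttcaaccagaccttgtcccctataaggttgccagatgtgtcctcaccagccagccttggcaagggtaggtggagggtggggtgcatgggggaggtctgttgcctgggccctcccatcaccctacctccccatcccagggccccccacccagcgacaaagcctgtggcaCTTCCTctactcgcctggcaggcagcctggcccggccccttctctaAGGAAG
The Eng stretch lies at chr2:32646345-32646594 on the plus strand, and one of its matches ends at the base before the start.

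No gene for the junctions and the surface of endothelial cells passed the test. Of 9 measured members, 5 had positive and 4 negative values, with a median of 0.069 on the log2 scale. Without wild-type mother 2 the median was -0.19, and without ApoE-null mother 4 it was -0.082. Cdh5 encodes VE-cadherin, the adhesion molecule of endothelial adherens junctions. Its signal was 273, 223 and 358 with a wild-type mother and 224, 185, 229 and 282 with an ApoE-null mother, of which 3 lay above the lowest array of the first group, and the log2 fold change was -0.29 (standard error 0.20, interval -0.74 to 0.15, adjusted p = 0.727 in limma). Pecam1, which holds neighbouring endothelial cells together and is also present on platelets and leukocytes, had signals of 160.1, 84.3 and 239 against 172, 97.5, 162 and 226. It varied widely within the wild-type mother group, and its log2 fold change of 0.090 had an interval of -0.67 to 0.85. Without wild-type mother 2, the lowest array, the value was -0.31.

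Cldn5, the main claudin of endothelial tight junctions, had signals of 999.9, 838 and 1134 with a wild-type mother and 1299, 681, 771 and 1114 with an ApoE-null mother. The second group spanned the whole range of the first, and the log2 fold change was -0.074 with an interval of -0.56 to 0.41. Esam and Icam2, adhesion molecules of the immunoglobulin family, had log2 fold changes of -0.0019 and -0.24. Clec14a, a lectin-like receptor of angiogenic vessels, and its relative Cd93 had 0.10 and 0.33. Cd93 was the surface gene with the smallest unadjusted p (0.0547 in limma), and its signal was 1744, 1235 and 1142 against 1654, 1637, 1712 and 1811. Only the array of wild-type mother 1 reached the range of the ApoE-null mother group, and the interval was -0.0080 to 0.68 (limma, adjusted p = 0.61). All 4 kept probe sets of Cd93 were positive, from 0.20 to 0.41. Cd93 is known in blood cells too, and their part in its values was not tested. Cd34, a sialomucin of endothelium and progenitor cells, had a log2 fold change of 0.069. Emcn, a sialomucin of capillaries and veins, had 0.46 with an interval of -0.33 to 1.24. The Emcn signal was highest on the arrays of ApoE-null mother 2 and 3 (103 and 92.1) and lowest on that of wild-type mother 3 (32.8).

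Among the genes of channels and caveolae, none passed the test, and Gja4 had an unadjusted p under 0.05. It encodes connexin 37, which couples arterial endothelial cells. Its signals were 301, 342 and 512 with a wild-type mother and 271, 297, 244 and 302 with an ApoE-null mother. The groups overlapped by a narrow margin, since 302 on the array of ApoE-null mother 4 exceeded 301 on that of wild-type mother 1. The log2 fold change was -0.43 (standard error 0.19, interval -0.86 to -0.0056, adjusted p = 0.604 in limma). Without wild-type mother 3, the array with the highest signal, it was -0.21. Cav1, the main coat protein of caveolae, which smooth muscle and fat cells also express, had signals of 6960.4 to 9287 and 7337 to 8119.5 and a log2 fold change of -0.046 (interval -0.31 to 0.22). For its partner Cav2 the signals were 3848, 4745 and 3399 against 4172, 5068, 5563 and 4077. Those groups overlapped, and the log2 fold change was 0.24 (standard error 0.15, interval -0.098 to 0.58, adjusted p = 0.705 in limma). Plvap, which forms the diaphragms of capillary openings, had 0.18 (interval -0.25 to 0.61).

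Receptors and signalling genes had positive values in 7 of 8 members, with a median of 0.14 on the log2 scale, and none passed (limma, adjusted p of at least 0.737). Leaving out wild-type mother 2 gave 6 and leaving out wild-type mother 3 gave 5, with medians of 0.067 and 0.11. Calcrl and Ramp2 form the receptor for adrenomedullin, a peptide that stabilises vessels, and had log2 fold changes of 0.24 and -0.15, with intervals of -0.20 to 0.69 and -0.52 to 0.23. Ptprb, a phosphatase that acts on VE-cadherin and TIE2, had 0.13, with signals of 1595 to 1898 and 1815 to 2013. S1pr1, the sphingosine 1-phosphate receptor that tightens junctions, had 0.15. It is also used by T cells, and 6 of their 7 measured markers were separate between the groups. The part of T cells in the S1pr1 value was not tested. Nrp1, a co-receptor for VEGF and semaphorins, had 0.11, and its 4 kept probe sets ran from -0.13 to 0.34. The guidance receptor Robo4 and the arterial tyrosine kinase Bmx had 0.099 and 0.29. Rasip1, a RAS-interacting protein needed for vessel lumens, had 0.40 with an interval of -0.76 to 1.55. That interval was the widest of the members, and its signals of 11.8 to 49.4 reached background on the arrays of wild-type mother 2 and ApoE-null mother 3.

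Eng and Acvrl1 encode endoglin and ALK1, which together bind BMP9 and BMP10 on endothelium, and Tmem100 is induced through them. Eng had signals of 343, 423 and 358 with a wild-type mother and 333, 271, 233 and 349.6 with an ApoE-null mother. Only 349.6 on the array of ApoE-null mother 4 lay above the lowest array of the other group, at 343. The log2 fold change was -0.35 (standard error 0.18, interval -0.74 to 0.045, adjusted p = 0.642 in limma), and its other kept probe set gave -0.23. Acvrl1 had 0.042 (interval -0.38 to 0.47) and Tmem100 had -0.11 (interval -0.91 to 0.69). The other kept probe set of Acvrl1 gave -0.088, and the value of the probe set used turned sign with single arrays left out.

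None of the 4 genes for secreted and matrix proteins of endothelium passed the test. Vwf encodes von Willebrand factor, which tethers platelets to injured vessels and is made by megakaryocytes too. Its signals were 1634, 1730.2 and 2342 with a wild-type mother and 2107, 1655, 1620.5 and 2392 with an ApoE-null mother. Each group held arrays at both ends of this range, and the log2 fold change was 0.030 (standard error 0.18, interval -0.36 to 0.42, adjusted p = 0.972 in limma). The score of the 5 measured megakaryocyte and platelet markers of 6 was -1.21 to 1.07 and -0.21 to 0.85. Mmrn2, a matrix protein of endothelium that binds CLEC14A and CD93, had 0.097 on the log2 scale (interval -0.23 to 0.42). Its relative Mmrn1, found in lymphatic endothelium and platelets, had 0.11, but its signals were 628, 279 and 102 with a wild-type mother, a wider spread than the 216 to 332 of the other group. Egfl7, a secreted guide of vessel growth, had -0.16 (interval -0.55 to 0.22), with all 4 kept probe sets negative. Its gene holds miR-126, a microRNA of endothelium that was not measured here. The mature strand of RefSeq lies at chr2:26591402-26591423 on the plus strand of GRCm38.p6, and its seed, bases 2 to 8, is in capitals.
mmu-miR-126a-3p: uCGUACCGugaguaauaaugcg

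The members varied between the arrays of one cross. The median SD within groups was 0.252 on the log2 scale over the 38 members, against 0.256 over all genes. The mean deviation of all members was -0.16 to 0.099 per array in the wild-type and -0.057 to 0.088 in the ApoE-null mother group, so the groups overlapped. The array of ApoE-null mother 4 had the highest signal for 11 of 38 members (28.9%), Vwf, Icam2, Esam and Cd34 among them, and for 9.02% of all genes. The array of ApoE-null mother 3, of the same group, had the lowest signal for 11 members (28.9%), Vwf and Icam2 again among them, and for 15.6% of all genes. The array of wild-type mother 3 was lowest for 10 members (26.3%, against 15.4% of all genes), which included Emcn, Calcrl, Nrp1, Cav2 and Plvap. It was highest for 7 (18.4%), near the 17.5% of all genes, and these were Pecam1, Cdh5, Sox17, Sox18, Gja4, Ramp2 and Acvrl1. On that array the 5 genes listed for capillary endothelium had a score of -0.65 against -0.20 to 0.29 on the others, and the 5 measured adipocyte markers of 6 one of -1.30 against -0.14 to 0.44. The part of those cells in the values of the members was not tested. These counts describe single arrays and were not tested.

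**Figure D3:**
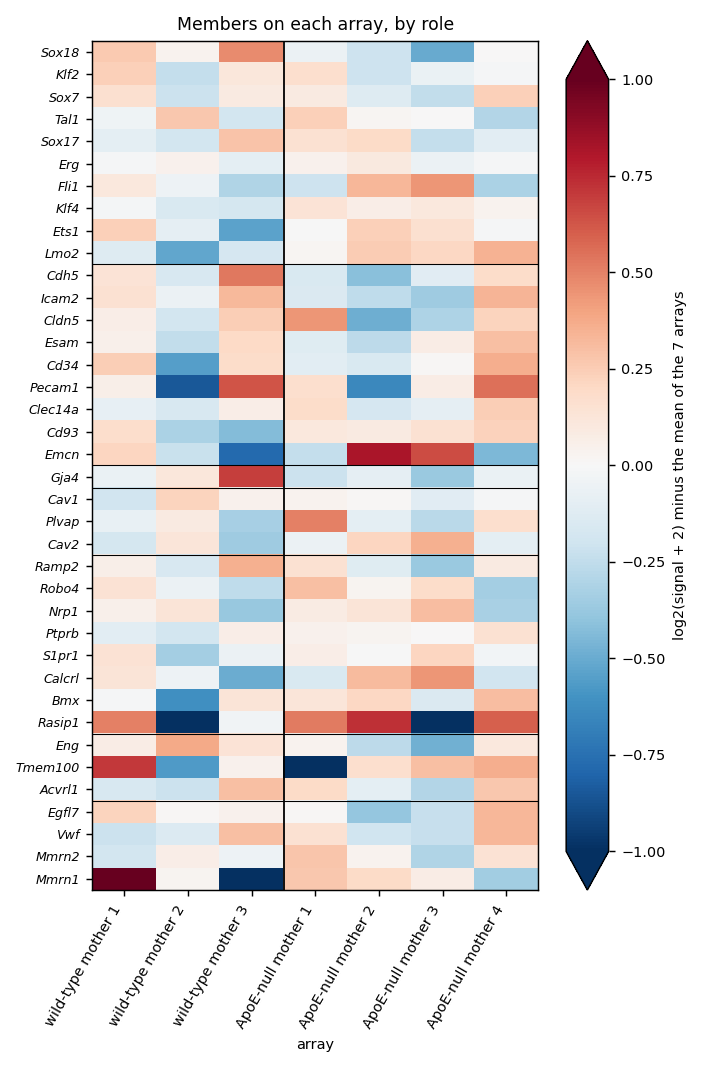
Deviation of each member (rows, by role) on each array (columns) from its mean over the 7 arrays, as log2(signal + 2), with red above and blue below the mean and the colour scale ending at 1 in either direction. The line between the groups separates 3 arrays with a wild-type mother from 4 with an ApoE-null mother, and the array of wild-type mother 3 holds the lowest value of 10 members, or 26.3% against 15.4% of all genes.

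Other endothelial genes, listed by role and not members, had no call either. Of 49, 46 were measured and 0 passed (limma, smallest adjusted p = 0.55), 23 were positive and 23 negative, and the median was 0.020 on the log2 scale. None had groups without overlap, against 8.58% of all genes. An unadjusted p under 0.05 in limma was reached by 3 of the 46, against 8.65% of all genes. Prox1 and Sele were below the minimum mean signal, and Ccl21a had no probe set of its own symbol. Tek, the angiopoietin receptor, had signals of 879, 564 and 697 with a wild-type mother and 823, 898, 1096 and 1171 with an ApoE-null mother, and the array of wild-type mother 1 lay within the range of the second group. The log2 fold change was 0.49 (standard error 0.18, interval 0.087 to 0.89, adjusted p = 0.55 in limma). The adhesion receptor gene Adgrl4 had 111, 189 and 95 against 230.4, 169, 234 and 162. Its log2 fold change was 0.63 (interval 0.082 to 1.17), and -0.045 with another of its probe sets. Aplnr, the apelin receptor of veins and capillaries, had 295, 524 and 203 against 226, 227, 189 and 172, and its log2 fold change of -0.64 was -0.28 without wild-type mother 2, where it was highest. Reln, made by lymphatic endothelium, had 541, 229 and 407 against 298, 208, 341 and 166 and a log2 fold change of -0.60 (interval -1.27 to 0.075), which became -0.32 with wild-type mother 1 left out and -0.94 with wild-type mother 2 left out.

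By role, the VEGF, angiopoietin and apelin receptors, 5 genes, had a median of 0.082 on the log2 scale, and arterial genes, such as Hey2 and Dll4, one of 0.12 over 5. Venous genes had -0.23 over 3 and lymphatic genes -0.20 over 4. With single arrays left out these medians ran from -0.18 to 0.17 for the receptors, -0.11 to 0.16 for arterial, -0.30 to -0.067 for venous and -0.32 to 0.061 for lymphatic genes, turning sign in all but the venous group. Leaving out ApoE-null mother 4 or wild-type mother 3 turned the receptors and the arterial genes, wild-type mother 2 the receptors and wild-type mother 1 the lymphatic genes. Nos3, Thbd, Procr and Ptgis, which produce nitric oxide and prostacyclin or restrain clotting and are in part targets of KLF2, had log2 fold changes of -0.15, 0.20, -0.053 and -0.21. The leukocyte adhesion genes Vcam1, Icam1 and Selp, which mark activated endothelium, had 0.12, -0.067 and -0.26, with intervals that included 0. All 5 capillary genes were positive, with a median of 0.37 and none called (limma, adjusted p of at least 0.661). Without wild-type mother 3 their median was 0.099, with Gpihbp1 at -0.29, Fabp4 at 0.0017 and Rgcc at 0.099, and Aqp1 was -0.057 without wild-type mother 2 and -0.067 without ApoE-null mother 4. Among the 5 were Fabp4 (0.42), which fat cells express too, Car4 (0.65) and Gpihbp1 (0.12), which holds lipoprotein lipase on the vessel wall. Their score was -0.65 to 0.29 in the wild-type and -0.027 to 0.29 in the ApoE-null mother group, so the groups overlapped, and the lowest value was that of wild-type mother 3.

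**Figure D4:**
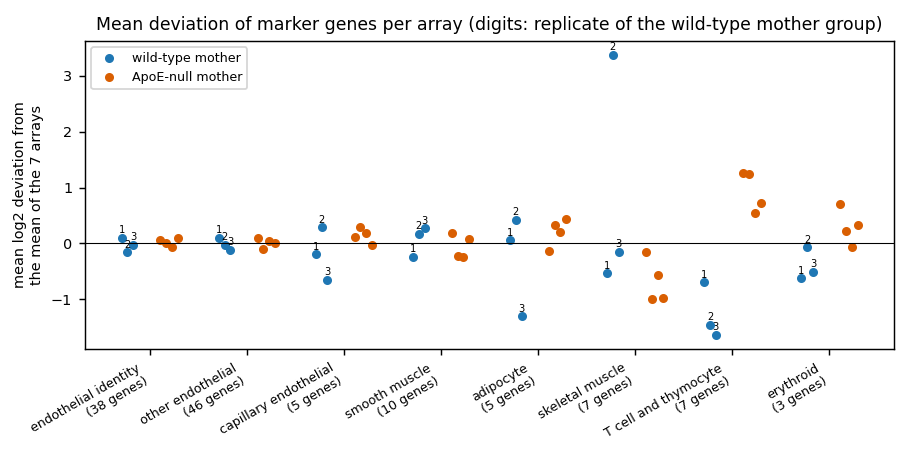
Mean log2 deviation of each gene list from the mean of the 7 arrays (y axis), 1 point per array, with the number of measured genes under each name and the replicate number beside the points of the wild-type mother group. The 38 members stay between -0.16 and 0.10, while skeletal muscle markers reach 3.38 on the array of wild-type mother 2 and T cell markers separate the groups.

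Where several probe sets of a member were kept, their signs agreed for 8 of 15 members. The 7 with differing signs were Acvrl1, Cav2, Fli1, Klf4, Nrp1, Ptprb and Sox17, and all their values had intervals that included 0 for the probe set used. Sox17 and Egfl7 were represented by probe sets whose suffix marks possible cross-hybridisation. For Sox18, Lmo2 and Gja4, 1 probe set each was available.

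The counts of separated members moved with single arrays. Without wild-type mother 1 the groups did not overlap for 9 members (23.7%), against 19.2% of all genes. Ets1, S1pr1 and Cd93 were added on the higher side and Eng, Gja4 and Cav1 on the lower. Without ApoE-null mother 4 the groups did not overlap for 7 members (18.4%), against 16.1% of all genes, with Eng, Egfl7, Gja4 and Icam2 added on the lower side. Without wild-type mother 2, the array that stood apart, it was 4 members (10.5%) against 20.2% of all genes. The number with an unadjusted p under 0.05 in limma was 5 without wild-type mother 1, against 10.1% of all genes. It was 1 (Lmo2) without wild-type mother 3, against 7.09%, and without ApoE-null mother 3, against 5.82%. Lmo2, Klf4 and Sox18 were separate over all 7 arrays, so leaving out an array could not make their groups overlap. No member passed in any of these settings.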

How the data were processed

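Expression in the carotid artery was measured in 7 samples on Affymetrix Mouse 430 2.0 arrays, 1 per sample, grouped by the cross in the labels. Per the labels' protocols, RNA was amplified in 2 cycles with an oligo-dT primer. The authors deposited linear intensity values, MAS5 signals from GCOS per the submitters' processing notes, whose versions were not stated. The 2% trimmed mean of each array is 200.0. Symbols came from the platform annotation, and probe sets of several symbols or none were not named. Of 45101 probe sets, 64 controls were left out and 27027 above the 40th percentile of mean signal were kept. Signals entered as log2(signal + 2), where 2 is the 10th percentile after rounding, and were fitted in limma 3.58.1 under R 4.3.3 (lmFit, eBayes with intensity trend, Benjamini-Hochberg, threshold 0.05, no covariate). The number of arrays limits the precision: in simulated data the fit called 20.3% of genes changed 2-fold, 84.3% changed 4-fold and 0 changed 1.5-fold.

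Named in full were members without overlap, the 8 with the smallest p and Pecam1, Cdh5, Vwf, Cldn5, Klf2, Klf4 and Sox17; of the other endothelial genes, the 4 with the smallest p. Members and lists were chosen with earlier results of these data known. Marker lists of fibroblasts (8 genes measured, median log2 fold change -0.010), pericytes (5, -0.20), macrophages (8, 0.15), mast cells (5, 0.21), B cells (1, 0.55), Schwann cells (2, -1.64) and ganglion and glomus cells (4, -0.66) had no called gene. Alternatives were pseudocounts of 1 and 16, other filters, quantile normalization, no trend, other probe sets, a smooth muscle covariate and leaving out each array.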

Additional observations from a re-analysis of the deposited data

Results flagged for a closer look

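Of 42 genes examined for an array far from the other 3 of the ApoE-null mother group, 2 stood out, and chance gives about 1 in 20. Rasip1 was 11.8 on the array of ApoE-null mother 3 against 42.3 to 49.4 on the other 3, and near its value of 11.9 on the array of wild-type mother 2, both at background. Tmem100, a target of BMP receptors, was 61.9 on the array of ApoE-null mother 1 against 144.3 to 165.3 on the other 3.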

How the results depend on the processing

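Under each of 16 settings, 7 of which left out 1 array, 0 members and 0 of the other endothelial genes passed in limma (smallest adjusted p of a member 0.337, for Cd93 without wild-type mother 1). The members' median log2 fold change was 0.035 to 0.10 over left-out arrays and 0.014 to 0.080 over the other settings, and positive members numbered 20 to 26 and 19 to 27. Counts added after the data were seen, of members without overlap and with an unadjusted p under 0.05, were 3 to 9 and 1 to 5 of 38 over left-out arrays, where 11.1% to 20.2% and 5.82% to 10.3% of all genes did so. Medians by role over left-out arrays were also added after the data were seen. Of the 38 members, 19 kept their sign throughout, Lmo2, Sox18, Gja4, Cd93, Eng and Cdh5 among them. Signs turned with quantile normalization for Esam (0.0058), Sox17 (-0.024) and Tal1 (0.0035), with the smooth muscle covariate for Esam (0.015), Cldn5 (0.045), Sox7 (0.0021), Cav1 (0.0030) and Mmrn1 (-0.17), with the median probe set of a gene for Fli1 (-0.37), Sox17 (-0.019), Klf4 (-0.016), Cav2 (-0.043), Acvrl1 (-0.088) and Adgrl4 (-0.045), and without probe sets of suffix a, s or x for Acvrl1 (-0.088). With single arrays left out, values crossed 0 for Vwf (-0.076 to 0.19), Esam (-0.13 to 0.097), Sox7 (-0.14 to 0.053), Sox17 (-0.091 to 0.14), Klf2 (-0.21 to 0.032), Acvrl1 (-0.055 to 0.20), Tmem100 (-0.42 to 0.22), Pecam1 (-0.31 to 0.43), Tal1 (-0.12 to 0.11), Cav1 (-0.15 to 0.053), Rasip1 (-0.064 to 0.84), Cd34 (-0.19 to 0.21), Cldn5 (-0.23 to 0.077), Robo4 (-0.00030 to 0.23), Mmrn1 (-0.56 to 0.74) and Nrp1 (-0.043 to 0.24). Without crossing 0, values moved by over 1.5 times for Cdh5 (-0.45 to -0.11), Emcn (0.20 to 0.69), Egfl7 (-0.30 to -0.058), Erg (0.0011 to 0.071), Fli1 (0.019 to 0.27), Ets1 (0.022 to 0.41), Gja4 (-0.59 to -0.21), Cav2 (0.13 to 0.37), Ptprb (0.073 to 0.20), Mmrn2 (0.018 to 0.21), Plvap (0.040 to 0.30), Ramp2 (-0.27 to -0.012), Calcrl (0.067 to 0.38), S1pr1 (0.018 to 0.26), Icam2 (-0.39 to -0.15), Bmx (0.062 to 0.44), Cd93 (0.21 to 0.52), Clec14a (0.034 to 0.17), Aplnr (-0.95 to -0.28) and Reln (-0.94 to -0.32). The cause was not tested. Under the filter at the 60th percentile Emcn, Robo4 and Rasip1 gave no value. The array of wild-type mother 2 alone had a low Xist signal and a high skeletal muscle score, and low signals such as those of Rasip1 limit what could be measured. No paired analysis was possible because the labels give the arrays of the groups no shared replicate numbers.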
